A study of Rattus norvegicus with 8 samples.

Results

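The transcripts of 10 genes that make bile acids, carry them across the hepatocyte membrane or control their synthesis were followed in the livers of rats fed a high phosphorus (HP) diet or a control diet. The genes were taken from a list that was chosen with earlier results of these data known. They were Cyp7a1, Cyp8b1, Cyp27a1 and Cyp7b1 (synthesis enzymes), Nr1h4 (Fxr), Nr0b2 (Shp) and Nr5a2 (Lrh1) (nuclear receptors), Abcb11 and Slc10a1 (transporters), and Fgfr4 (a growth factor receptor). Every probe set that the array annotation gives to 1 of these symbols alone was used, which gave 12 of the 31042 probe sets of the array and 10 of its 14217 named genes. A probe set was counted as measured where its highest and lowest values over the 8 arrays differed by at least 0.05 on the log2 scale. By that rule 10 of the 12 probe sets, of 8 of the 10 genes, were measured, as were 4155 of the 31042 probe sets in all.

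The HP group was 4 male Wistar rats given 1.2% phosphorus in an AIN-93G-based diet, and the control group was 4 male Wistar rats given 0.3% phosphorus in the same base. All rats arrived at 4 weeks of age, were housed singly and ate the control diet for 7 days before the 24 days of feeding, and the labels give an age of 8 weeks. Each diet was fed to 5 rats, of which 4 had an array. RNA of whole liver was hybridised to 1 Affymetrix array for each rat, so a lower value can mean fewer cells of a type or less RNA in each cell, which cannot be told apart.

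Bile acids are made from cholesterol in hepatocytes. The classic route starts with Cyp7a1, whose product passes to Cyp8b1 on the way to cholic acid, and an alternative route starts with Cyp27a1 and continues through Cyp7b1. Bile acids that return to the liver bind the nuclear receptor Nr1h4, which induces Nr0b2, and Nr0b2 in turn represses the action of Nr5a2 and Hnf4a on Cyp7a1. A second signal reaches hepatocytes from the intestine through Fgfr4.

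Values are given on the log2 scale of the array, so that a difference of 1 is a doubling of the signal. The median of each array lay at 6.65, and the r between any pair of arrays lay between 0.968 and 0.992 across the measured probe sets. Among the hepatocyte markers, Fgb, Apob and Apoa1 were measured, with mean values of 13.86, 13.38 and 13.13, while Alb and Ttr were constant over the 8 arrays. All 7 markers of bile duct cells on the array were constant too, so nothing can be read of these cells.

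Differences between the diets were tested in 2 ways. Rank products, the method of the study, sets each HP array against each control array, ranks all probe sets in the 16 resulting differences, and calls a probe set at a false discovery rate (FDR) under 0.05. Limma compares the difference with the spread between rats over the 4155 measured probe sets and calls a probe set at a Benjamini-Hochberg adjusted p under 0.05. Rank products called 4 of the 10 measured probe sets lower in HP diet-fed rats (Cyp7a1, Nr0b2 and 2 of the 3 of Nr5a2) and 1 higher (Nr1h4). Over the whole array it called 1.57% of probe sets lower and 1.14% higher, which is 11.7% and 8.5% of the measured ones. The paper lists Cyp7a1, Nr0b2 and Nr5a2 as down-regulated and Nr1h4 as up-regulated on these same arrays. Since the genes were chosen with earlier results known, a count set beside these shares is no test of this list or of the lists below. Limma called 0 of the 10, and 0.0% of all measured probe sets, and at an unadjusted p under 0.05 it gave 0 of the 10 against 12.7% of all (7.29% lower and 5.37% higher). With each array centred on the measured probe sets, the 303 lower and 223 higher at that p became 223 lower and 297 higher. The values of HP and control rats overlapped in all 10, whereas 7.17% of the measured probe sets did not overlap (4.07% lower and 3.1% higher). The median difference over the 8 measured genes, each at its brightest measured probe set, was 0.00, beside -0.02 over all measured probe sets.

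Cyp7a1, the rate-limiting enzyme of the classic route, showed the widest spread of the listed genes. Its log2 values were 6.59, 6.69, 7.17 and 7.99 in HP rats 1 to 4, against 7.15, 7.96, 9.88 and 8.34 in control rats 1 to 4. HP rats 1 and 2 lay below every control rat, and control rat 3 lay far above all others. Control rats 1 and 2 lay within the range of the HP rats. The mean was 7.11 ± 0.64 (SD, n = 4) in HP rats and 8.33 ± 1.14 (SD, n = 4) in control rats, 0.429 times the control level. The difference was -1.22 (standard error 0.54, 95% interval -2.45 to 0.01, limma adjusted p = 0.398). An exact permutation test over the 70 ways of assigning the diets gave p = 0.143 (two-sided, 0.0286 is the smallest possible). In rank products Cyp7a1 ranked 2 of all probe sets among those lower, and no product as small arose in 1000 permutations. These permuted the values within each array and did not reassign rats to the diets, so they do not measure the spread between rats. Without control rat 3 the difference was -0.70 (limma adjusted p = 0.647, rank products FDR 0.0129). Rank products also called Cyp7a1 lower with any other rat left out. Only 5 measured probe sets of the array had a wider span than the 3.29 of Cyp7a1.

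**Figure D1:**
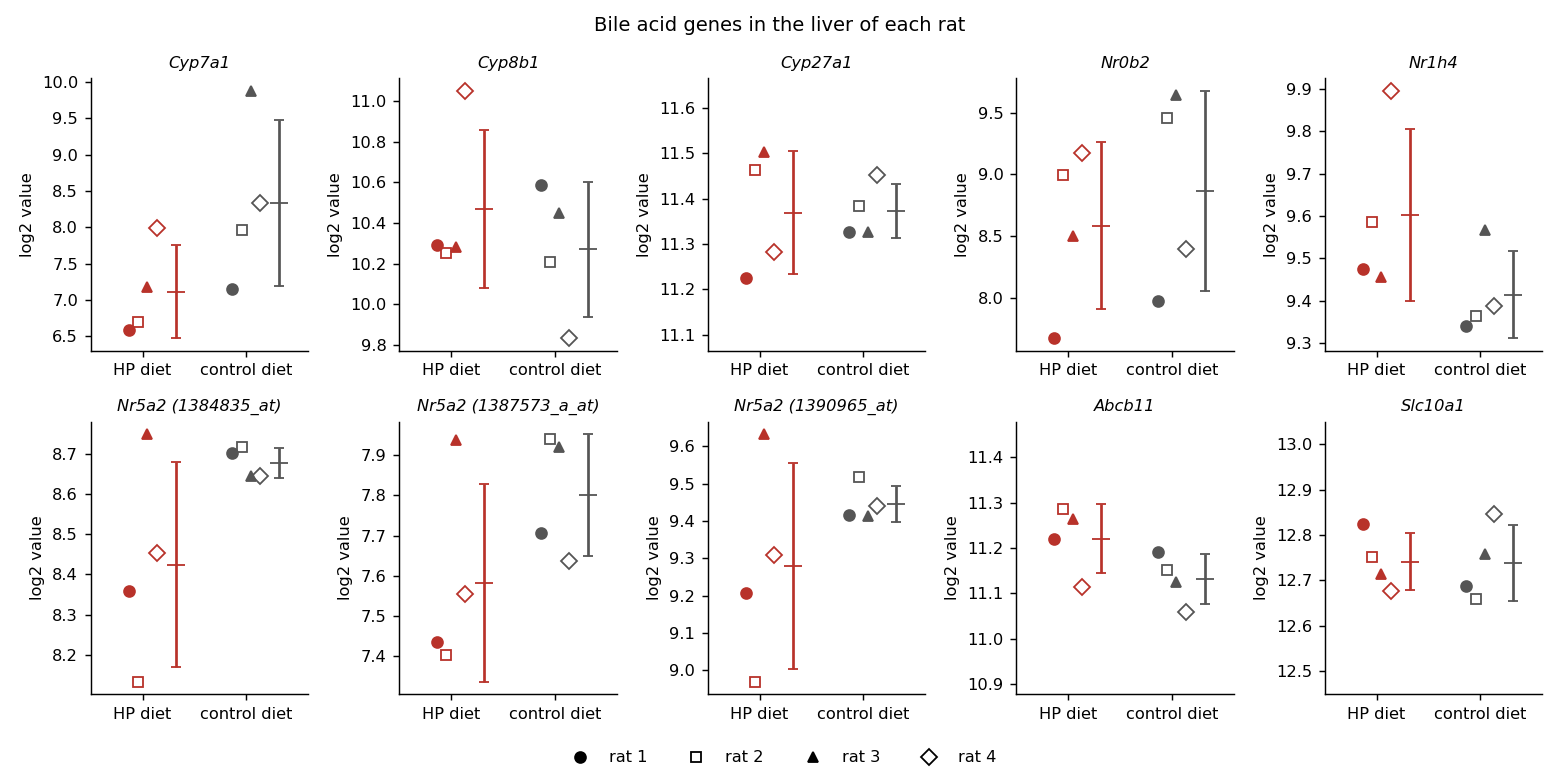
Log2 value of each measured probe set of the bile acid genes in every rat, HP diet (red, left of each panel) and control diet (grey), with the 4 rats of each diet as separate symbols and the mean and SD of 4 rats as a bar beside them; axes differ between panels. Cyp7a1 runs from 6.59 to 9.88, and the diets overlap in every panel.

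Of the other enzymes, Cyp8b1 and Cyp27a1 were called by neither test. Cyp8b1, the sterol hydroxylase that directs synthesis to cholic acid, had log2 values of 10.29, 10.25, 10.28 and 11.05 in HP rats and 10.58, 10.21, 10.45 and 9.83 in control rats. HP rat 4 stood above all other rats, and the remaining 3 HP rats lay within 0.05 of each other. The difference was 0.20 (standard error 0.21, 95% interval -0.28 to 0.68, limma adjusted p = 0.696), and it was 0.01 without HP rat 4. Rank products did not call it (FDR 0.0827), although it called Cyp8b1 higher without control rat 1 and without control rat 3.

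Cyp27a1, the mitochondrial enzyme that oxidises the sterol side chain, had log2 values of 11.23, 11.46, 11.50 and 11.28 in HP rats and 11.33, 11.38, 11.33 and 11.45 in control rats. All 8 lay within 0.28 of each other, and the difference was -0.00 (95% interval -0.16 to 0.15, limma adjusted p = 0.99). Its sign turned under several settings, so no direction is given for Cyp27a1. Cyp7b1, which hydroxylates the oxysterols of the alternative route, had a log2 value of 5.89 in all 8 rats. Fgfr4 likewise had 7.74 in all 8. The span of both was at most 0.000634. The authors' summary method leaves a probe set so where its probes share no variation over the arrays, so nothing can be read of either gene. Alb was constant too, at a mean of 14.53, so a constant value does not mean a low one.

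Nr0b2, the repressor that lacks a DNA-binding domain, varied among rats of both diets. Its log2 values were 7.67, 9.00, 8.50 and 9.18 in HP rats, against 7.98, 9.46, 9.64 and 8.40 in control rats. The lowest rat of each diet was rat 1, and the ranges lay over each other. The difference was -0.28 (standard error 0.43, 95% interval -1.27 to 0.70, limma adjusted p = 0.796), well within the SD of 0.67 in HP rats and 0.81 in control rats. Rank products called Nr0b2 lower (FDR 0.0151), but not without HP rat 1, control rat 2 or control rat 3, nor with only the measured probe sets ranked (FDR 0.224). Without HP rat 1 the difference was 0.02.

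Nr5a2, which binds DNA as a monomer and drives Cyp7a1 and Nr0b2, was represented by 3 probe sets of differing brightness. At the brightest its log2 values were 9.21, 8.97, 9.63 and 9.31 in HP rats and 9.42, 9.52, 9.41 and 9.44 in control rats. At the middle one they were 8.36, 8.13, 8.75 and 8.45 in HP rats and 8.70, 8.72, 8.64 and 8.64 in control rats. At the dimmest they were 7.44, 7.40, 7.94 and 7.55 in HP rats and 7.71, 7.94, 7.92 and 7.64 in control rats. The 3 probe sets gave the same picture: HP rat 2 was the lowest rat and HP rat 3 the highest of its diet in each, and HP rats 1, 2 and 4 lay below every control rat in each. From the brightest to the dimmest the differences were -0.17, -0.25 and -0.22 (limma adjusted p = 0.555, 0.407 and 0.502). Without HP rat 2 they were -0.06, -0.16 and -0.16, and without HP rat 3 they were -0.28, -0.36 and -0.34. Rank products called the middle (FDR 0.0487) and the dimmest (FDR 0.0411) lower, and did not call the brightest (FDR 0.0842). None of them was called without HP rats 1, 2 or 4 or without any 1 of the 4 control rats, and all 3 were called without HP rat 3. Both calls were lost with only the measured probe sets ranked (FDR 0.678 and 0.692) and without the dimmest 25% (FDR 0.073 and 0.066), and that of the middle one under quantile normalization (FDR 0.0504). The spread between rats at the 2 brighter probe sets was larger in HP rats (SD 0.28 and 0.25) than in control rats (SD 0.05 and 0.04), a difference that was not tested.

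Nr1h4, the bile acid receptor, had log2 values of 9.47, 9.59, 9.46 and 9.90 in HP rats and 9.34, 9.36, 9.57 and 9.39 in control rats. HP rats 2 and 4 lay above every control rat, and control rat 3 lay above HP rats 1 and 3. The difference was 0.19 (standard error 0.10, 95% interval -0.04 to 0.42, limma adjusted p = 0.46). Rank products called Nr1h4 higher with an FDR of 0.0409. The call was lost with only the measured probe sets ranked (FDR 0.721) and without the dimmest 25% (FDR 0.068). With 1 rat left out it remained only without control rat 3, and the difference ran from 0.09 (without HP rat 4) to 0.24 (without control rat 3).

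Promoter sequence is shown for Nr0b2, Nr5a2 and Cyp8b1, the receptor pair called lower by rank products and an enzyme called by neither test. The windows are the 250 bases before the annotated start, from RefSeq on build GRCr8, and 6 of the 10 genes had an entry. Those without one were Cyp7a1, Cyp7b1, Nr1h4 and Abcb11. Both strands were searched for the site that Nr5a2 binds as a monomer (CAAGGNCA), the nuclear receptor half-site (AGGTCA) and the TATA box (TATAAA), and matches stand in capitals. A match to the first can contain the half-site. Of 33469 promoter windows of this length, 5.58% held CAAGGNCA, 14.1% AGGTCA and 12.9% TATAAA. Nr0b2 (chr5:151062910-151063159, plus strand) held CAAGGCCA 199 bases and TATAAA 29 bases before the start. Nr5a2 (chr13:50984939-50985188, minus strand) held AGGTCA 134 bases before it, and Cyp8b1 (chr8:130457593-130457842, minus strand) CAAGGGCA 82 bases before it.
Nr0b2: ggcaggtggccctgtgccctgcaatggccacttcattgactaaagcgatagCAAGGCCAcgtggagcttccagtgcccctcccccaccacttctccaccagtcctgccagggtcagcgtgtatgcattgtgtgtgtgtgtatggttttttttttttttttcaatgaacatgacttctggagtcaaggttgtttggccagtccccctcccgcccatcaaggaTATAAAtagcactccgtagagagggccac
Nr5a2: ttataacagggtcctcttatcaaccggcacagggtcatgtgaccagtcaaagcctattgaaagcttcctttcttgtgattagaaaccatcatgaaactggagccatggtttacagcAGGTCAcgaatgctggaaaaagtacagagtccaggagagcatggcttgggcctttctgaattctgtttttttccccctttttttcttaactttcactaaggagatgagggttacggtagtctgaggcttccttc
Cyp8b1: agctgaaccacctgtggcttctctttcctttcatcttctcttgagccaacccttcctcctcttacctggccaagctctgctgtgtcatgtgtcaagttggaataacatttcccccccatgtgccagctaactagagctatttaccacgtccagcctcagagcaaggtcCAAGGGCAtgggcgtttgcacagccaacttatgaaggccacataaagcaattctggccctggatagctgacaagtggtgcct
Nr0b2 also held an E-box (CACGTG, in 5.59% of windows) 193 bases before the start, which overlaps its CAAGGCCA match and is not capitalised as a whole. The other motifs searched had no match in the 6 windows: the inverted repeat (0.0269% of all windows) and the direct repeat (0.0508%) of the half-site with 1 base between its copies, the D-box TTATGTAA (0.828%) and the palindromic HNF1 site (0.00299%). These matches describe letters in a window and are not evidence of binding. Cyp27a1 held AGGTCA in both orientations, the reverse one inside a CAAGGNCA match, Slc10a1 held AGGTCA 2 times and Fgfr4 1 time.

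The transporters differed little. Abcb11, the canalicular pump that exports bile salts and an Nr1h4 target, had log2 values of 11.22, 11.29, 11.26 and 11.11 in HP rats and 11.19, 11.15, 11.13 and 11.06 in control rats. Of the HP rats, 3 lay above every control rat. The difference was 0.09 (standard error 0.05, 95% interval -0.03 to 0.21, limma adjusted p = 0.475), and rank products did not call it (FDR 0.165). Slc10a1, the sodium-coupled carrier that takes bile salts up from blood, had 12.82, 12.75, 12.71 and 12.68 in HP rats and 12.69, 12.66, 12.76 and 12.85 in control rats. Its difference was 0.00 (95% interval -0.11 to 0.12, limma adjusted p = 0.985) and its sign turned with the rat left out.

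**Figure D2:**
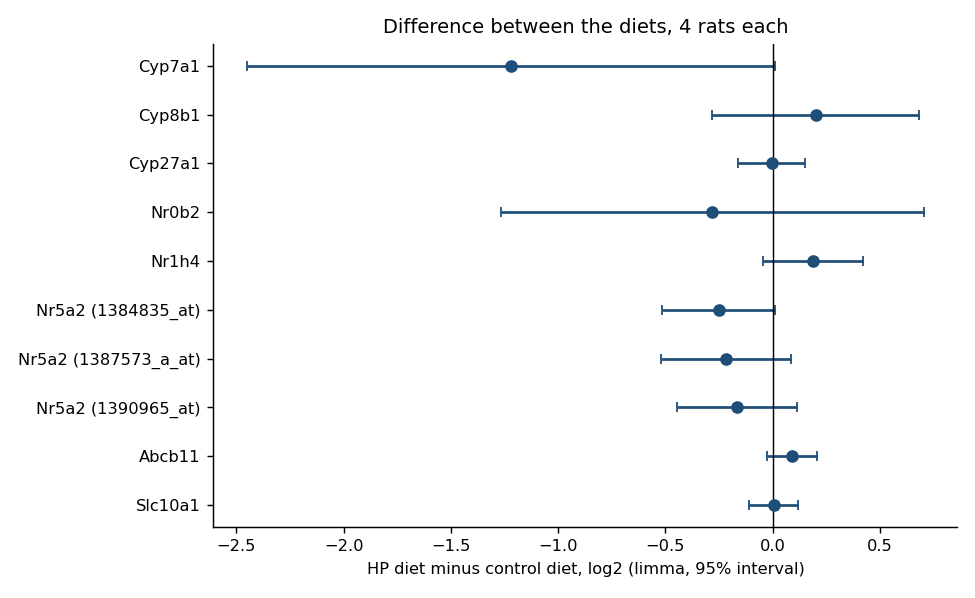
Difference between HP diet and control diet (log2, x axis) for each measured probe set, with the 95% interval of limma from 4 rats each. The interval of every probe set includes 0, that of Cyp7a1 (-2.45 to 0.01) only just, and those of Cyp27a1 and Slc10a1 lie within 0.2 of 0.

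Cyp7a1 was next set against its regulators over the 8 rats. Pearson's r and Spearman's rho were computed against all 4154 other measured probe sets, with exact permutation p over the 40320 pairings, and adjusted over all of them. No relation passed, and the smallest adjusted p was 0.103 for r and 0.183 for rho. Of all 4154 relations 18.9% had an unadjusted exact p under 0.05 and 45% an r of at least 0.5 in size, so that an r of that size is common here. Control rat 3 and HP rat 1, the rats farthest from the median of Cyp7a1, were then left out.

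Nr0b2 went with Cyp7a1, not against it: r was 0.665 (exact permutation p = 0.0646, adjusted p = 0.287) and rho 0.643 (exact permutation p = 0.0962, adjusted p = 0.416). Both genes were highest in control rat 3 and lowest in HP rat 1. Without HP rat 1 alone r was 0.566, without control rat 3 alone 0.481, and without both 0.224. These rats were left out for their Cyp7a1 values, which narrows its range and can by itself lower r. After subtraction of each diet's mean r was 0.689. For Nr1h4 r was 0.150 (exact permutation p = 0.685, adjusted p = 0.834) and rho 0.071 (exact permutation p = 0.882, adjusted p = 0.951), and r was 0.054 without the same rats. With each diet's mean subtracted, r was 0.740, since in each diet the rat with the most Nr1h4 (HP rat 4 and control rat 3) also had the most Cyp7a1. For Nr5a2 r was 0.379, 0.443 and 0.551 at the 3 probe sets from the brightest to the dimmest (exact permutation p = 0.348, 0.278 and 0.148, adjusted p = 0.589, 0.528 and 0.394), and rho was 0.381, 0.310 and 0.452 (exact permutation p = 0.36, 0.462 and 0.267, adjusted p = 0.644, 0.712 and 0.582). Without the 2 rats r was 0.430, 0.424 and 0.214, and with the diet means subtracted it was 0.159, 0.105 and 0.345.

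Abcb11 ran against Cyp7a1, with r of -0.716 (exact permutation p = 0.0391, adjusted p = 0.246) and rho of -0.810 (exact permutation p = 0.0218, adjusted p = 0.321). Without control rat 3 and HP rat 1 r was -0.946, and with the diet means subtracted it was -0.550. The whole range of Abcb11 was 0.23 on the log2 scale, against 3.29 for Cyp7a1. Cyp8b1, Cyp27a1 and Slc10a1 had r of 0.046, -0.060 and 0.014 with Cyp7a1 (exact permutation p = 0.905, 0.896 and 0.976, adjusted p = 0.953, 0.951 and 0.986) and rho of -0.024, 0.119 and 0.024 (exact permutation p = 0.977, 0.793 and 0.977, adjusted p = 0.993, 0.902 and 0.993). Without the 2 rats their r was -0.106, -0.300 and 0.199.

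**Figure D3:**
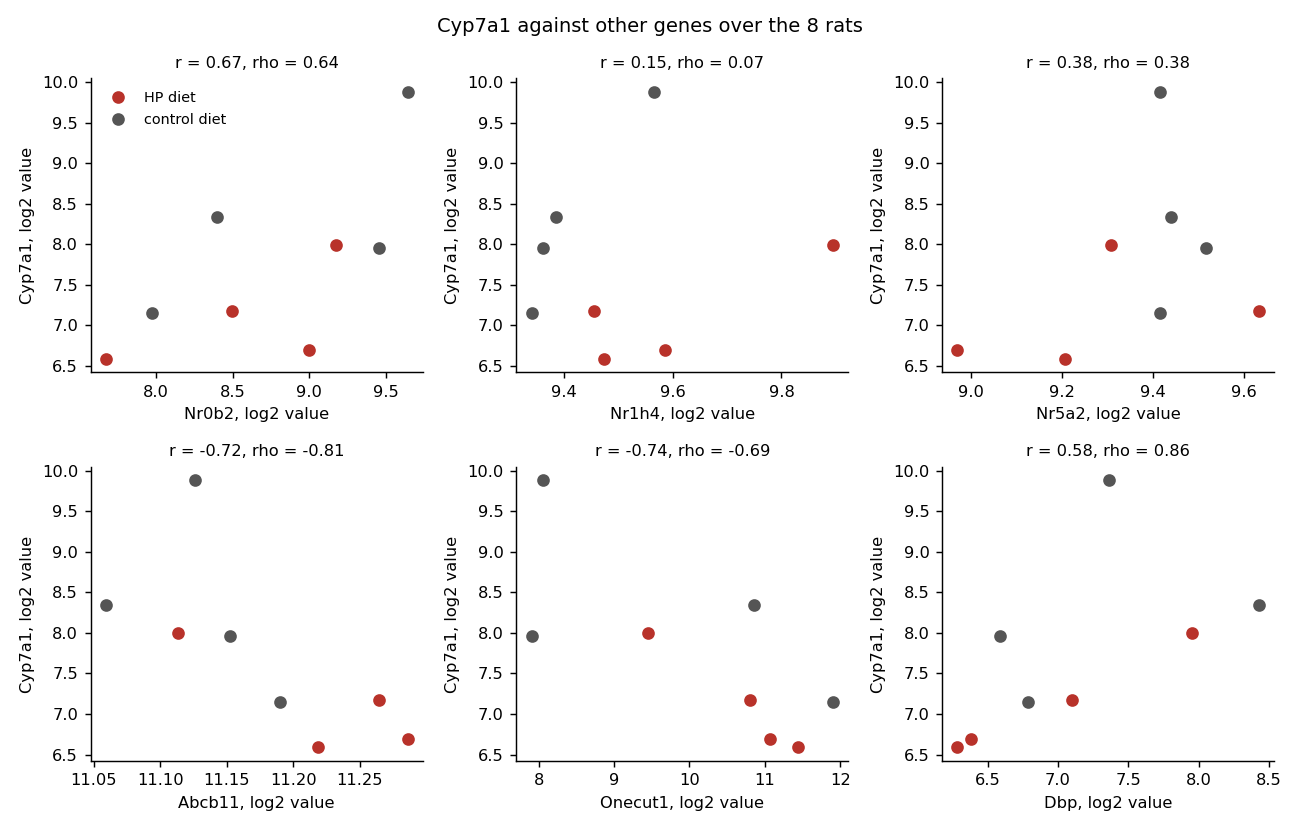
Cyp7a1 (log2, y axes) against Nr0b2, Nr1h4, Nr5a2 (brightest probe set), Abcb11, Onecut1 and Dbp (log2, x axes), 1 point for each rat, HP diet in red and control diet in grey. Cyp7a1 is higher where Nr0b2 and Dbp are higher and lower where Abcb11 and Onecut1 are higher, and the r for Nr1h4 over all 8 rats is 0.150.

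A wider list of factors known to act on Cyp7a1 held 25 genes, of which 17 were measured. At the brightest measured probe set of each gene, rank products called 4 lower (Dbp, Nr1d1, Bhlhe40 and Foxo1) and 2 higher (Onecut1 and Ppargc1a), where 11.7% of all measured probe sets were called lower and 8.5% higher. Limma called 0, and 0 passed an unadjusted p of 0.05. The median difference was -0.03. Dbp, a transcription factor of the daily rhythm that binds the rodent Cyp7a1 promoter, had log2 values of 6.28, 6.38, 7.10 and 7.95 in HP rats and 6.78, 6.59, 7.37 and 8.43 in control rats. The difference was -0.36 (standard error 0.47, limma adjusted p = 0.754), smaller than its SD in either diet. Dbp put the HP rats in the same order as Cyp7a1 did. Its rho with Cyp7a1 was 0.857 (exact permutation p = 0.0107, adjusted p = 0.287) and its r 0.578 (exact permutation p = 0.134, adjusted p = 0.375), with an r of 0.757 without control rat 3 and HP rat 1. Nr1d1, the clock repressor Rev-erbα, had log2 values of 7.12, 7.32, 8.26 and 8.62 in HP rats and 7.78, 7.52, 8.27 and 8.52 in control rats, with a difference of -0.20 (standard error 0.36). Its rho with Cyp7a1 was 0.833 (exact permutation p = 0.0154, adjusted p = 0.29) and its r 0.614 (exact permutation p = 0.0976, adjusted p = 0.333), or 0.616 without the 2 rats. Cyp7a1 is known to follow a daily rhythm in rodents. For the hour at which each rat was killed, the sources used here hold no value. The part of these genes in the difference of Cyp7a1 was not tested.

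Onecut1, a hepatocyte factor that binds the Cyp7a1 promoter, ran the other way. Its log2 values were 11.45, 11.07, 10.81 and 9.45 in HP rats and 11.91, 7.90, 8.06 and 10.86 in control rats, so control rats 2 and 3 stood below all others. The difference was 1.01 (standard error 0.92, limma adjusted p = 0.635), less than the SD of 2.01 in control rats. Its r with Cyp7a1 was -0.742 (exact permutation p = 0.0329, adjusted p = 0.231) and its rho -0.690 (exact permutation p = 0.0694, adjusted p = 0.385), with an r of -0.532 without control rat 3 and HP rat 1. Ppargc1a, a coactivator that rises in fasting, had a difference of 0.28 (standard error 0.19, limma adjusted p = 0.527) and Foxo1, which insulin holds out of the nucleus, one of -0.23 (standard error 0.10, limma adjusted p = 0.398). Bhlhe40, a clock repressor, had a difference of -0.36 (standard error 0.28, limma adjusted p = 0.572). Unlike Dbp and Nr1d1, Bhlhe40 had an r near 0 with Cyp7a1, at -0.022 (exact permutation p = 0.958, adjusted p = 0.976), and a rho of 0.071 (exact permutation p = 0.882, adjusted p = 0.951). For Ppargc1a r was -0.660 (exact permutation p = 0.0697, adjusted p = 0.293) and rho -0.667 (exact permutation p = 0.0831, adjusted p = 0.404). For Foxo1 r was 0.555 (exact permutation p = 0.149, adjusted p = 0.396) and rho 0.405 (exact permutation p = 0.327, adjusted p = 0.621). Without control rat 3 and HP rat 1 r was 0.271 for Bhlhe40, -0.723 for Ppargc1a and 0.074 for Foxo1. Hnf4a, an activator of Cyp7a1 named here after its values were seen, had 2 measured probe sets that disagreed. The brighter, the one counted in the list, differed by -0.10 between the diets (standard error 0.10, limma adjusted p = 0.662) and was not called. No difference is given here for the dimmer, and the paper lists Hnf4a as up-regulated. The brighter had an r of 0.480 (exact permutation p = 0.228, adjusted p = 0.477) and a rho of 0.238 (exact permutation p = 0.582, adjusted p = 0.784). The dimmer had an r of -0.703 (exact permutation p = 0.0431, adjusted p = 0.252) and a rho of -0.429 (exact permutation p = 0.299, adjusted p = 0.602). Without the same rats their r was 0.329 and -0.590.

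The later enzymes of the pathway moved little. On a list of 17 genes for ring modification, side-chain shortening and conjugation, 12 were measured, and rank products called 0 and limma 0. At an unadjusted limma p under 0.05, 1 was higher and 0 lower (5.37% and 7.29% of all measured probe sets). The higher one was Slc27a2, named here after its values were seen. It differed by 0.12 (limma adjusted p = 0.332, rank products FDR 0.051). Every HP rat lay above every control rat for it, as for 3.1% of all measured probe sets. The median difference was 0.02, with 7 above and 5 below 0. The largest differences were 0.14 for Hsd3b7 (standard error 0.14), which acts directly after Cyp7a1, and -0.13 for Acox2 (standard error 0.10), the peroxisomal oxidase that shortens the side chain. Acox2 had log2 values of 10.75, 10.84, 10.93 and 11.13 in HP rats and 10.83, 11.08, 11.19 and 11.10 in control rats, in nearly the order of Cyp7a1. Its r with Cyp7a1 was 0.892 (exact permutation p = 0.00213, adjusted p = 0.147) and its rho 0.952 (exact permutation p = 0.00114, adjusted p = 0.19), with an r of 0.931 without control rat 3 and HP rat 1.

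On a list of 16 further transporters of bile acids and bile lipids, 8 were measured. At the brightest measured probe set of each, rank products called 1, Abcg2, higher, beside 8.5% of all measured probe sets. Abcg2, an efflux pump of broad specificity, had log2 values of 8.20, 8.49, 8.23 and 8.17 in HP rats and 7.69, 7.88, 8.00 and 7.98 in control rats. Every HP rat lay above every control rat, the difference was 0.39 (standard error 0.10, rank products FDR 0.0021) and limma did not call it (adjusted p = 0.233). Fabp1 and Atp8b1 are named here after their values were seen. Fabp1, which the paper lists as up-regulated, differed by 0.10 and narrowly missed the rank products threshold here (FDR 0.0533). Every HP rat lay above every control rat for Fabp1, as for 3.1% of all measured probe sets. Atp8b1, which the paper lists as down-regulated, differed by -0.02 at its brightest measured probe set and was not called. The median difference of the list was 0.03. Of 17 hepatic targets of Nr1h4, 9 were measured, 5 with a difference above 0 and 4 below. Rank products called 1 of them, Nr0b2, lower, beside 11.7% of all measured probe sets. The median of the targets was 0.00. Among 15 genes of cholesterol supply and export, 7 were measured with a median of 0.04, and rank products called Insig1, which retains the sterol sensor in the endoplasmic reticulum, and Sqle, a cholesterol synthesis enzyme, lower. Their differences were -0.50 (standard error 0.31) and -0.21 (standard error 0.10), with limma adjusted p of 0.502 and 0.424. Of all measured probe sets 11.7% were called lower.

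**Figure D4:**
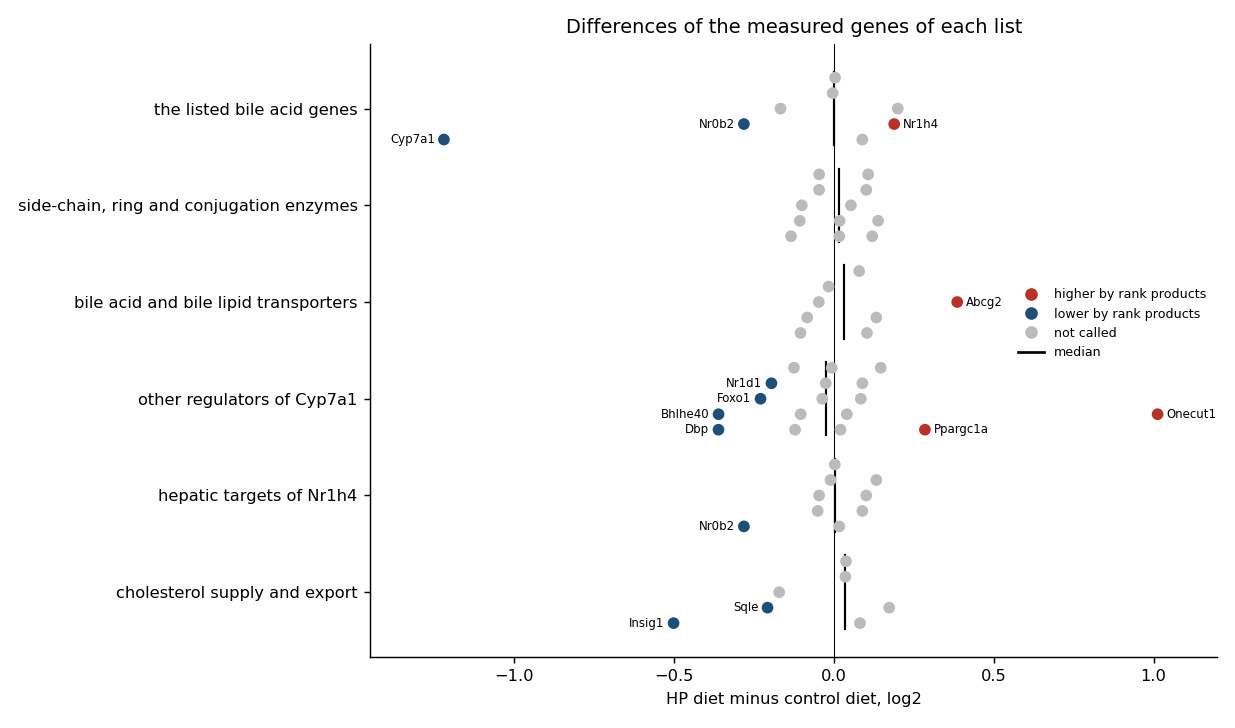
Difference between HP diet and control diet (log2, x axis) of every measured gene in the listed bile acid genes and in 5 further lists, each gene at its brightest measured probe set, with genes called by rank products coloured and named and the median of each list as a black line. The 6 medians lie between -0.03 and 0.04, and Cyp7a1 at -1.22 and Onecut1 at 1.01 are the points farthest from 0.

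The genes whose profile over the 8 rats was most like that of Cyp7a1, by Pearson's r among 2807 named measured genes, were Nostrin (0.959), Cdk2ap2 (0.957) and Kif13a (0.949). The most opposite were Ypel3 (-0.968), Glyatl2 (-0.968) and Tmem106b (-0.956). They were chosen for this pattern, and no test is given. Glyatl2 had log2 values of 8.55, 8.37, 8.39 and 8.12 in HP rats and 8.41, 8.21, 7.81 and 8.17 in control rats, with its lowest value in control rat 3, where Cyp7a1 was highest. Nostrin, which binds the endothelial nitric oxide synthase, had 7.72, 7.83, 7.87 and 7.98 in HP rats and 7.92, 7.94, 8.18 and 7.99 in control rats.

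Rank products also called markers of position in the lobule and of other liver cells, of which limma called 0 after adjustment. Cyp7a1 is expressed mainly around the central vein in rodents. Of 11 periportal genes all 11 were measured, rank products called 5 lower (Sds, Gls2, Ass1, Cps1 and Hal) and 0 higher (11.7% and 8.5% of all measured probe sets), and the mean log2 value of the list ran from 10.72 to 10.83 in HP rats and from 10.92 to 11.06 in control rats. Of 11 pericentral genes 7 were measured, rank products called 1 higher (Tbx3), and the mean of the list ran from 10.60 to 10.88 in HP rats and from 10.62 to 10.84 in control rats. All 8 measured Kupffer cell markers of 11 had a difference below 0, as did 56.5% of all measured probe sets. All 8 were highest in control rat 1, so they are not 8 separate results. Of them 1 was called lower (Cd5l, -0.33). Their mean ran from 8.63 to 8.87 in HP rats and from 8.65 to 9.05 in control rats. All 4 measured markers of sinusoidal endothelium of 9 had a difference above 0, and 2 were called higher (Kdr, 0.26, and Stab2, 0.23), with a mean from 9.58 to 9.75 in HP rats and from 9.46 to 9.60 in control rats. Of 9 stellate cell markers 4 were measured and 0 called, with a mean from 8.82 to 9.05 in HP rats and from 8.76 to 9.07 in control rats. The largest differences among them were 0.14 for Lrat and 0.11 for Col1a2. Of 10 hepatocyte markers 4 were measured and 1, Cps1, was called lower. Their mean ran from 13.08 to 13.14 in HP rats and from 13.16 to 13.22 in control rats. Cps1, which is also on the periportal list, differed by -0.27, whereas Fgb, Apob and Apoa1 differed by 0.00, -0.03 and 0.02. A brighter probe set of Cps1 was constant over the 8 arrays. The part of any of these in the values of the bile acid genes was not tested.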

How the data were processed

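Liver RNA of 8 rats, 1 array each, was analysed from the deposited table of log2 values, which the authors made with FARMS in R (R 2.13.1 in the submitters' processing notes). FARMS keeps the variation over the arrays that the probes of a probe set share. How arrays were scaled to each other was not stated in the sources used here, and no scaling was added. The deposited log2 values ran from 5.35 to 14.53 over 31042 probe sets and 57 control probe sets. Genes were named from the platform annotation, which gave a single symbol to 20826 probe sets, several to 436 and none to 9780, and probe sets with several were not named. Precision is limited by having 4 arrays in each diet.

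Rank products (numpy 2.4.6, Python 3.11.15) used all 31099 rows and 1000 permutations of the values within each array. Limma 3.58.1 (R 4.3.3, empirical Bayes with trend and robust estimation) used, without control probe sets, the 4155 whose values span 0.05 or more, and is two-sided. Exact permutation tests and correlations are described beside their values. Rank products, limma and the correlations were tested on simulated data. Members and lists were chosen with earlier results of these data known.

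All 10 listed genes are named. From each further list (12 lists) the genes called by rank products are named or, where none was called, those with the largest differences, and in addition the genes most like Cyp7a1 and most opposite to it. A gene stands in a list at its brightest measured probe set. Alternatives were centring, quantile normalization, no span filter or a span of 0.2, leaving out the dimmest 25%, array weights, empirical Bayes without trend or robust estimation, a block for the replicate number and leaving out each rat. No scan date was used, so batches were not tested. Other software was pandas 2.3.3, scipy 1.17.1 and matplotlib 3.10.9.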

Additional observations from a re-analysis of the deposited data

Results flagged for a closer look

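Cyp8b1 in HP rat 4, at a log2 value of 11.05, lay far from the 10.25, 10.28 and 10.29 of the other HP rats. Its gap to the nearest of them, divided by the range of the diet, was 0.948, above the 95% critical value of the Dixon test for 4 samples. It was the 1 such value among 76 groups of 4 rats, over 38 probe sets, where chance flags about 1 group in 20. HP rat 4 also had the highest Cyp7a1, Nr0b2 and Nr1h4 of the HP rats.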

How the results depend on the processing

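Among the differences of the listed genes between the diets, those of Cyp27a1, Nr0b2 and Slc10a1 changed sign under some alternative, as given here. Some correlations with Cyp7a1 changed sign as well. Without control rat 3 and HP rat 1, for example, r went from 0.046 to -0.106 for Cyp8b1 and from -0.022 to 0.271 for Bhlhe40. With only the 4155 measured probe sets ranked, rank products called 1 listed probe set lower (Cyp7a1) and 0 higher, and without the dimmest 25% of probe sets 2 lower and 0 higher. With 1 rat left out the counts ran from 1 to 5 lower and from 0 to 2 higher. Over the whole array rank products called 487 lower and 353 higher, against 16 lower and 24 higher with measured probe sets ranked alone, 305 and 233 without the dimmest 25%, and from 71 to 539 lower and from 85 to 587 higher with 1 rat left out. Limma called 0 listed probe sets under every alternative run. At an unadjusted p under 0.05 it gave 1 lower with array weights and 1 lower with the replicate block, against 0 in the report (Cyp7a1 in both). Without HP rat 3 it gave 3 lower (the 3 of Nr5a2), without HP rat 4 it gave 1 lower (Cyp7a1) and 1 higher (Abcb11), and without control rat 1 it gave 1 lower (Cyp7a1). The block gave 312 lower and 192 higher over all measured probe sets. Over all measured probe sets array weights gave 490 lower and 385 higher at that p, against 303 and 223 without them. With no span filter, limma tested all 31042 probe sets and gave 1112 lower and 1315 higher. The difference of Cyp7a1 ran from -1.61 (without control rat 1, adjusted p = 0.156) to -0.70 (without control rat 3) with 1 rat left out. With array weights it was -1.49 (adjusted p = 0.155). The difference of Cyp27a1 was 0.0168 with centring, 0.0022 with quantile normalization and 0.0359 with array weights, and ran from -0.0487 to 0.0437 with 1 rat left out. With 1 rat left out Nr0b2 ran from -0.58 to 0.0226 and Slc10a1 from -0.0239 to 0.0397. The cause of these changes was not tested. Centring each array cannot change a rank product. The sources used here do not say whether rats with the same replicate number share anything else. The r of their deviations from the diet means was 0.479, 0.031, -0.123 and -0.197 for numbers 1 to 4. With the replicate block the difference of Cyp7a1 was -1.22 (limma adjusted p = 0.368), and limma called 0 listed probe sets. Cyp7b1 and Fgfr4 were constant over the arrays after FARMS, so no difference is given for them.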
